A study of Mus musculus with 6 samples.

Results

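The genes described here are 8 markers of the fetal-like and regenerative state of the intestinal epithelium: Ly6a, Ly6e, Ly6d, Msln, Clu, Il33, Spp1 and Gja1. They were chosen by name as known markers, with earlier results of these data known, and found by their symbols among 25067 rows of gene-level RNA-seq values. All 8 were above the filter on low values that kept 13210 rows for testing.

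The libraries came from organoids, three-dimensional cultures of epithelium grown from isolated colon crypts of C57BL/6 mice aged 8 weeks. Every culture, vehicle included, carried floxed (f/f) alleles of both genes of the atypical protein kinases C (aPKC), Prkci and Prkcz, and the Villin-CreERT2 transgene, a tamoxifen-activated Cre recombinase driven by the Villin promoter, which is active in gut epithelium. The medium held B27, WNT3A, EGF, Noggin and R-spondin 1. On passage the organoids were given 4-hydroxytamoxifen (4-OHT), which activates the recombinase, or vehicle (ethanol), and RNA was taken after 3 days, with 3 libraries in each group. No 4-OHT library without the floxed genes or without the recombinase was used, so aPKC loss, Cre activity and 4-OHT itself cannot be told apart. The labels do not say whether the libraries of a group came from separate animals or cultures, so the p-values measure only the spread between these samples.

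When the gut epithelium is damaged, the cells that rebuild it switch on a set of genes otherwise used in the fetal gut, among them those of the surface protein Sca-1 (Ly6a) and of clusterin (Clu). In the mouse colon this repair state is known from wound edges and from colitis, where it replaces the usual stem cell program until the tissue has healed, and it depends on the transcriptional regulators YAP and TAZ with their TEAD partners. Organoids grown from fetal gut carry the same markers.

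The targeted genes were examined beside the labels. Prkcz, which encodes the aPKC isoform zeta, stood at 880, 904 and 954 normalized counts in vehicle replicates 1, 2 and 3 and at 287, 265 and 290 in 4-OHT replicates 1, 2 and 3. Prkci, which encodes the other isoform, stood at 3603, 3526 and 3430 against 2869, 3105 and 3089. Both were lower in every 4-OHT library than in every vehicle library, Prkcz by 1.70 and Prkci by 0.22 on the log2 scale. Such a separation downward was found for 25.3% of all genes tested. A lower log2 fold change was found for 0.174% of genes in the case of Prkcz and for 24.8% in that of Prkci. The Prkci fall alone therefore does not check the labels. A normalized count is the number of reads of a gene divided by a size factor of its library, and the libraries held 15804709 to 26957612 reads. The markers of colonic epithelium fixed as a list were present, with a sum of 263376 to 272694 normalized counts over 12 genes in the vehicle libraries and 353815 to 385498 in the 4-OHT libraries. Of these, 6 were higher and 2 were lower in the 4-OHT libraries (limma adjusted p under 0.05), against 22.7% and 21% of all genes tested. Among the lower ones was Cdx2 (log2 fold change -0.26), a transcription factor of the intestinal epithelium.

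Some 4-OHT libraries also held higher counts of genes known as markers of other cell types or gut segments. The source of these reads was not tested. The small-intestinal list of 9 Paneth cell and ileal genes summed to 203 to 349 in the vehicle libraries and to 239, 1900 and 1300 in 4-OHT replicates 1, 2 and 3. The defensin gene Defa30 was at 0 in 4 libraries, all vehicle libraries among them, and at 80.9 in 4-OHT replicate 2 and 133 in 4-OHT replicate 3. The immunoglobulin gene Igha was at 0 in the vehicle libraries and at 1.03, 140 and 45.5 in the 4-OHT libraries. The fibroblast collagen Col3a1 was at 0 in the same 4 libraries, at 6.22 in 4-OHT replicate 2 and at 114 in 4-OHT replicate 3. Each marker below was therefore also compared without 4-OHT replicates 2 and 3. That comparison leaves 1 library in the 4-OHT group, so its adjusted p-values take the spread from the vehicle libraries alone (moderated across genes) and assume that the lone 4-OHT library varies like them.

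Of the 8 markers, 7 were higher in the 4-OHT libraries (limma, Benjamini-Hochberg adjusted p under 0.05) and 0 were lower. The other, Gja1, did not pass. Among all 13210 genes tested, 22.7% were higher and 21% were lower by the same rule, 43.6% in all. The count of lower markers was also 0 at an unadjusted p under 0.05, with edgeR and with DESeq2. Il33 was no longer called higher with DESeq2 (adjusted p = 0.0551). For the same 7 markers the lowest 4-OHT library lay above the highest vehicle library, which was so for 26.8% of the genes tested. The median log2 fold change of the 8 markers was 0.47, and that of all genes tested was -0.0054. In bulk RNA, more cells in the repair state and more RNA of these genes per cell cannot be told apart.

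**Figure D1:**
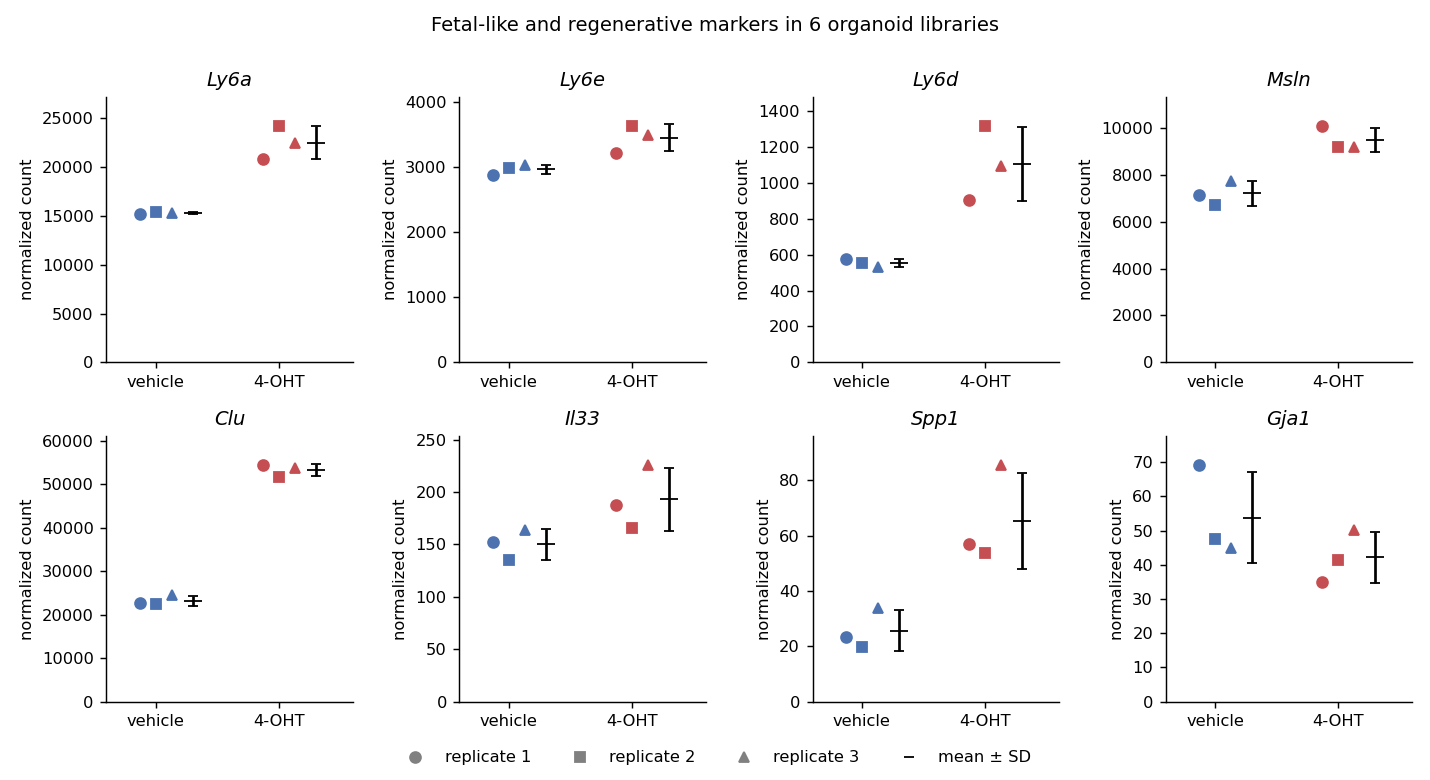
Normalized counts (y axis, linear, from 0, a scale of its own for each gene) of the 8 markers in the vehicle libraries (blue) and the 4-OHT libraries (red), with 1 symbol per library and the mean with its SD (n = 3) beside each group. The groups are apart for every marker but Gja1, whose vehicle values of 44.8 to 69.0 overlap 4-OHT values of 35.1 to 50.1.

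The markers spanned a wide range of levels. Per kilobase of exon (union of all annotated exons), Ly6a was the highest in the vehicle libraries, with a mean of 12699 normalized counts, ahead of Clu with 6733 and Msln with 2349. Ly6e (784) and Ly6d (743) came next, and their library values overlapped. Il33 (52.0), Spp1 (15.6) and Gja1 (5.24) were low. In the 4-OHT libraries Ly6a (18651) and Clu (15494) were again the highest, and Ly6d (1484) stood above Ly6e (912), with no overlap between them. The order of Ly6d and Ly6e rests on the exon lengths used, 744 and 3784 bases. In normalized counts Ly6e was the higher, with 4-OHT means of 3452 for Ly6e and 1104 for Ly6d.

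Ly6a, Ly6e and Ly6d encode small surface proteins of the Ly6/uPAR family that are held in the membrane by a lipid anchor. They lie near each other on mouse chromosome 15, Ly6d at chr15:74762056-74763620 (minus strand), Ly6e at chr15:74955051-74959905 (plus strand) and Ly6a at chr15:74994877-74998031 (minus strand) in the build GRCm38 with the GENCODE vM21 annotation. The labels name the later build GRCm39 for the reads, so these positions describe the genes and not the alignment.

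Part of the Ly6a sequence is shared with close relatives, and a read from that part cannot be assigned to 1 gene. Of the 50-base stretches of annotated Ly6a transcripts, 18.97% also occur in other genes (Ly6c1, Ly6c2, Ly6i and I830127L07Rik), and of the 100-base stretches 1.449% do, all in Ly6c1. The read length and the treatment of shared reads are not given in the sources used here. Over the coding sequence Ly6a is 86.32% identical to Ly6i, 83.72% to Ly6c1, 83.46% to Ly6c2 and 83.08% to Ly6g, but 60.34% to Ly6d and 57.77% to Ly6e. A 90-base window of the coding sequence (bases 40 to 129 from the start codon, coding strand, from the GENCODE vM21 transcripts) is shown because it is the stretch where Ly6a and Ly6i, the closest of these relatives, differ least. Capitals mark the bases unlike Ly6a, 1 in Ly6i, 7 in Ly6c1, 8 in Ly6c2 and 16 in Ly6g.
Ly6a: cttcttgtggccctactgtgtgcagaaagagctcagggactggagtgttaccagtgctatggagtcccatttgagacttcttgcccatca
Ly6i: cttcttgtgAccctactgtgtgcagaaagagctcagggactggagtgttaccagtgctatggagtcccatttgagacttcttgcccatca
Ly6c1: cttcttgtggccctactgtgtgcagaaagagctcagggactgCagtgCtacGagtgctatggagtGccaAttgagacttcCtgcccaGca
Ly6c2: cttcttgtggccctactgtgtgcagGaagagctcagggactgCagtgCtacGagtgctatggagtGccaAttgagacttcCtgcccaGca
Ly6g: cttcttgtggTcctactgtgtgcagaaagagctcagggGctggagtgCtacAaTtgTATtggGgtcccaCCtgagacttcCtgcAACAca

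Ly6a encodes Sca-1, the surface marker most used for the repair state in the mouse colon. It stood at 15218, 15409 and 15282 normalized counts in vehicle replicates 1, 2 and 3 and at 20811, 24192 and 22418 in 4-OHT replicates 1, 2 and 3. The vehicle libraries lay close together, and every 4-OHT library was above them. The log2 fold change was 0.55 ± 0.0489 (SE, n = 3 per group, limma adjusted p = 2.51e-08), from means of 15303 ± 97.3 (SD) and 22474 ± 1691. Without 4-OHT replicates 2 and 3 it was 0.44 (adjusted p = 1.09e-05).

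The close relatives of Ly6a differed widely in level. Ly6i had at most 10 reads in any library, and was lower in the 4-OHT libraries when no filter on low values was applied, and Ly6c2 had at most 9 reads, against 12623 to 23339 reads for Ly6a. Ly6c1 stood at 3096, 3270 and 3155 in the vehicle libraries and at 3342, 4222 and 3761 in the 4-OHT libraries, a log2 fold change of 0.24 ± 0.0626 (SE, adjusted p = 0.00354), which was 0.075 and no longer passed (adjusted p = 0.405) without 4-OHT replicates 2 and 3. Ly6g stood at 9302, 9782 and 9475 against 12305, 15295 and 12998, a log2 fold change of 0.50 ± 0.0591 (SE, adjusted p = 9.86e-07). For both the groups did not overlap. No 50-base stretch of Ly6a occurs in Ly6g. The shared stretches leave the split of reads between Ly6a and Ly6c1 uncertain, and the part of shared reads in these values was not tested.

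Ly6e, a relative found in many tissues, stood at 2888, 2983 and 3029 in the vehicle libraries and at 3222, 3631 and 3502 in the 4-OHT libraries. The groups did not overlap, but the step was the smallest among the 7 markers that rose, with a log2 fold change of 0.22 ± 0.0502 (SE, adjusted p = 0.00156). Without 4-OHT replicates 2 and 3 it was 0.12 and no longer passed (adjusted p = 0.167).

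Ly6d, known from stratified epithelium and lymphoid progenitors, stood at 575, 553 and 530 in the vehicle libraries and at 905, 1314 and 1094 in the 4-OHT libraries. Its level was thus about doubled in the 4-OHT group, with means of 553 ± 22.2 and 1104 ± 205 (SD, n = 3), and the groups were far apart. The log2 fold change was 0.98 ± 0.0946 (SE, adjusted p = 7.44e-08), and 0.71 (adjusted p = 2.09e-05) without 4-OHT replicates 2 and 3. Ly6a, Ly6e and Ly6d were each highest in 4-OHT replicate 2 and lowest, among the 4-OHT libraries, in replicate 1. That order was not shared by Msln and Clu, which were each highest in 4-OHT replicate 1. It was not particular to the Ly6 genes, since Krt8, Krt18, Cldn4 and Epcam had it too. Epcam stood at 30494, 34653 and 33498 in 4-OHT replicates 1, 2 and 3.

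**Figure D2:**
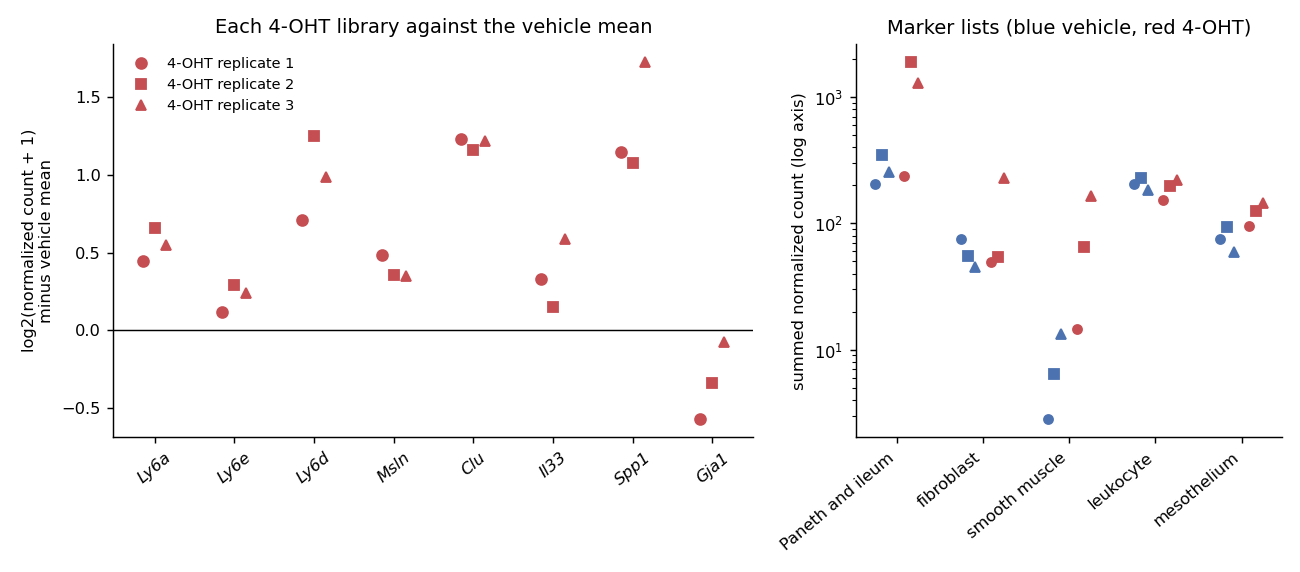
Left, the value of each 4-OHT library minus the vehicle mean on the log2(normalized count + 1) scale for the 8 markers. Ly6a, Ly6e and Ly6d share their order, with replicate 2 highest, as do genes outside the family that are not drawn. Spp1 ranges from 1.07 to 1.73. Right, the summed normalized count (log axis) of 5 marker lists in each library, blue for vehicle and red for 4-OHT (circle, square and triangle for replicates 1, 2 and 3); the Paneth and ileal sum is 1900 in 4-OHT replicate 2 and 239 in replicate 1.

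The other members of the family were counted as a group. Of 32 listed relatives of the 3 genes, 26 were in the data and 13 were tested. Of the tested genes, 8 were higher and 0 were lower in the 4-OHT libraries, against 22.7% and 21% of all genes tested. At an unadjusted p under 0.05, with edgeR and with DESeq2, also 0 were lower. The median log2 fold change was 0.45. The largest rises were those of Psca (1.56), first described as a prostate stem cell antigen, and of Ly6g6c (0.76) and Ly6g (0.50). Psca rests on low levels, 10.6 to 23.0 in the vehicle libraries and 43.3 to 58.9 in the 4-OHT libraries. The groups of Ly6g6c overlapped, with 4-OHT replicate 2 at 32.1 and vehicle replicate 1 at 32.7, and its call was lost in 5 of the 16 alternative analyses, with values of 0.55 to 1.00 when 1 library was left out. Lypd8, which keeps bacteria away from the colonic surface, was higher by 0.14 (adjusted p = 0.0153), a call lost in 4 alternatives. The number of higher relatives was 5 without 4-OHT replicate 3, and also 5 without 4-OHT replicates 2 and 3.

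Msln encodes mesothelin, a surface protein of mesothelial cells that also appears in regenerating gut epithelium, and lies at chr17:25748613-25754378 (minus strand). It stood at 7139, 6708 and 7747 in the vehicle libraries and at 10063, 9189 and 9173 in the 4-OHT libraries. All 4-OHT values were above all vehicle values, with a log2 fold change of 0.40 ± 0.0523 (SE, adjusted p = 4e-06) and of 0.49 (adjusted p = 3.73e-05) without 4-OHT replicates 2 and 3. The defining mesothelial transcription factor Wt1 was at 0 in 5 of the 6 libraries and at 1.14 in 4-OHT replicate 3, and Upk3b was at 0 to 4.97 in the vehicle libraries and at 0 to 2.07 in the 4-OHT libraries. The 7 mesothelial genes in the data summed to 59.3 to 93.6 in the vehicle libraries and 96.1 to 146 in the 4-OHT libraries. Most of the sum came from Podxl, which other cells also make and which was higher by 0.67 (limma adjusted p = 0.0127). Upk1b stood at 8.40, 18.4 and 12.1 against 19.6, 27.0 and 21.6. Its log2 fold change of 0.82 did not pass (limma adjusted p = 0.079), though its groups did not overlap. The part of mesothelial cells in the Msln values was not tested. Of the 50-base stretches of annotated Msln transcripts, 2.885% also occur in other genes, and of the 100-base stretches 0.2051% do.

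In a list of mesothelin partners, membrane proteases and other epithelial surface proteins, 8 genes were tested. Of the tested genes, 6 were higher and 1 was lower, against 22.7% and 21% of all genes tested. The membrane protease matriptase (St14, 0.43) and its inhibitors Spint1 (0.42) and Spint2 (0.30) rose, as did Epcam (0.27, lost in 2 alternatives), and the sheddase Adam17 (-0.15, adjusted p = 0.0335) was lower by a call that was lost in 7 of the 16 alternatives. Muc16, which encodes the mucin that binds mesothelin, had at most 7.97 normalized counts in any library and was not tested. Without 4-OHT replicates 2 and 3 the counts were 3 higher and 0 lower.

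Clu encodes clusterin, a secreted chaperone that marks the revival stem cells of the injured gut, and lies at chr14:65968483-65981547 (plus strand). It stood at 22619, 22373 and 24433 in the vehicle libraries and at 54306, 51643 and 53807 in the 4-OHT libraries. The difference was large beside the spread within each group, with means of 23141 ± 1125 and 53252 ± 1416 (SD, n = 3), a fold of 2.30. The log2 fold change was 1.20 ± 0.0458 (SE, adjusted p = 3.87e-13), and 1.23 (adjusted p = 3.76e-10) without 4-OHT replicates 2 and 3. No 50-base stretch of its transcripts occurs in another annotated gene, which was so for Il33, Ly6d and Ly6e as well. For Gja1 the share of such stretches was 0.1149%. Of all genes tested, 98.8% had a lower log2 fold change than Clu, and 99.5% had a lower vehicle mean in normalized counts.

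Of 4 tested genes in a list of clusterin receptors and complement regulators, 1 was higher and 2 were lower. Of all genes tested, 22.7% were higher and 21% were lower. The complement regulator Cd55 rose by 0.45 (adjusted p = 4.17e-06), and the lipoprotein receptors Vldlr (-0.58, adjusted p = 1.96e-07) and Lrp8 (-0.53, adjusted p = 1.25e-06), which bind clusterin, fell.

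Il33 and Spp1 encode signals to other cells. The start regions of Il33 and Spp1, and that of Gja1, are the only ones of the 8 markers in the RefSeq promoter sequences used here. They are shown as the 250 bases before the annotated start (RefSeq, GRCm38.p6, read 5′ to 3′ on the plus strand on which all 3 genes lie), because Spp1 had the largest fold of the markers and Gja1 was the one that did not rise. Capitals mark a match, on either strand, to the AP-1 motif TGANTCA or the core GGAATG bound by TEAD factors. These letters do not overlap each other. The motifs were chosen after the expression values were known. The coordinates are chr5:104434861-104435110 for Spp1, chr19:29924863-29925112 for Il33 and chr10:56377050-56377299 for Gja1.
Spp1: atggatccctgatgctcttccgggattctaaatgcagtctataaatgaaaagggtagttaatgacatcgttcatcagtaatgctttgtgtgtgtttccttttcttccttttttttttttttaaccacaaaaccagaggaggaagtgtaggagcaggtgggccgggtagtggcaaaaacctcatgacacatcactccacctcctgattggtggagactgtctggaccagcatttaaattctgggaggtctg
Il33: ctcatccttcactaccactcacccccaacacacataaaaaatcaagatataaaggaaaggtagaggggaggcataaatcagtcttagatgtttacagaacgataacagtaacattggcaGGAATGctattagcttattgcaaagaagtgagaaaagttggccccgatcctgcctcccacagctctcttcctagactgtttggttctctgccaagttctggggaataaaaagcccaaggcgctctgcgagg
Gja1: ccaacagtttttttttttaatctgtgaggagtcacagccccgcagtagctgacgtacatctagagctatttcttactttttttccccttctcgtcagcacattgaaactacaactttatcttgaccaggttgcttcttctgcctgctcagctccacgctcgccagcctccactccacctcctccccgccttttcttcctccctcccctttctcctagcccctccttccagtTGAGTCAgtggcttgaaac

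The Spp1 window held neither motif. The Il33 window held 1 match to GGAATG that begins 131 bases before the start, and the Gja1 window held 1 match to TGANTCA that begins 19 bases before it. Each of Il33 and Spp1 has a further annotated start, where the Il33 window held 1 match to GGAATG and the Spp1 window held neither motif. Among 32851 promoter windows of the same length, 6.749% held TGANTCA and 12.64% held GGAATG. A match describes the letters only.

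Spp1 encodes osteopontin, a secreted matrix protein made by epithelium, bone cells and macrophages, and lies at chr5:104435118-104441050 (plus strand). It stood at 23.3, 19.9 and 33.9 normalized counts in the vehicle libraries and at 56.8, 53.9 and 85.4 in the 4-OHT libraries. The groups did not overlap, but these are few reads, 25 to 28 per vehicle library and 52 to 75 per 4-OHT library, so that counting alone gives an error of 11.5% to 20% of a value. The log2 fold change was 1.32 ± 0.261 (SE, adjusted p = 0.000372), with a 95% confidence interval of 0.77 to 1.86.

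Spp1 was highest in 4-OHT replicate 3, the library with the highest sum of fibroblast genes. The fibroblast list summed to 44.8 to 75.6 in the vehicle libraries and to 49.6, 53.9 and 229.9 in the 4-OHT libraries, with Dcn at 2.07 in 4-OHT replicate 2, at 27.3 in replicate 3 and at 0 in the other 4 libraries. The leukocyte list summed to 184 to 228 in the vehicle libraries and to 154, 196 and 219.7 in the 4-OHT libraries. Most of that sum was Cd68, which was lower, at 186, 212 and 165 against 131, 157 and 132. The macrophage gene Csf1r was higher, at 13.1, 8.51 and 4.84 against 15.5, 17.6 and 29.6 (log2 fold change 1.20, limma adjusted p = 0.0295). The macrophage gene Lyz2 was at 0 in the vehicle libraries and at 1.03, 6.22 and 28.5 in the 4-OHT libraries. In 4-OHT replicate 1, Spp1 stood 1.15 above the vehicle mean on the log2 scale, a value that rests on 1 library. In that library Dcn and Col3a1 were at 0, Lyz2 was at 1.03 and Csf1r was at 15.5. The part of other cells in the Spp1 values was not tested. Of the 50-base stretches of annotated Spp1 transcripts, 11.59% also occur in the gene model Gm42793.

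Of 8 tested genes of osteopontin receptors, 6 were higher and 1 was lower, against 22.7% and 21% of all genes tested. Their median log2 fold change was 0.45. The integrin subunits Itgb8 (1.12) and Itgb1 (0.66) and the hyaluronan receptor Cd44 (0.59) rose, and the integrin subunit Itgb5 fell by 0.40. Without 4-OHT replicates 2 and 3 the counts were 3 higher and 0 lower.

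Il33 encodes an alarmin of the interleukin-1 family that is stored in the nuclei of barrier cells and released on damage, and lies at chr19:29925114-29960718 (plus strand). It stood at 152, 135 and 163 in the vehicle libraries and at 188, 166 and 225 in the 4-OHT libraries. The groups did not overlap, but the highest vehicle library and the lowest 4-OHT library were close, at 163 and 166. The log2 fold change of 0.35 ± 0.134 (SE) passed by a small margin (adjusted p = 0.0379), with a 95% confidence interval of 0.075 to 0.63. It did not pass without vehicle replicate 1 (adjusted p = 0.0686), vehicle replicate 2 (0.156), 4-OHT replicate 1 (0.0552) or 4-OHT replicate 3 (0.204), nor without 4-OHT replicates 2 and 3 (0.178), and its direction stayed the same in each of these. Il33 was highest in the same 4-OHT library as Spp1 and the fibroblast genes, and the part of those cells in the value was not tested.

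In the list of the IL-33 receptor and the IL-1 family, 4 of 11 tested genes were higher and 1 was lower, and this share of changed genes was near the 43.6% of all genes tested. Il1rl1, which encodes the IL-33 receptor ST2, was low, at 14.0, 26.2 and 14.5 in the vehicle libraries and at 34.1, 54.9 and 38.7 in the 4-OHT libraries, and rose by 1.21 ± 0.309 (SE, adjusted p = 0.00352). The cytokine Il18 (0.99) and the IL-1 receptor antagonist Il1rn (0.75) rose, and the inhibitory receptor Sigirr (-0.17, adjusted p = 0.0442) fell, a call that was lost in 10 of the 16 alternative analyses. The receptor partner Il1rap had a log2 fold change of 0.24 that did not pass (adjusted p = 0.0699).

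Gja1 encodes connexin 43, the most widespread gap junction protein, and lies at chr10:56377330-56402513 (plus strand). It stood at 69.0, 47.5 and 44.8 in the vehicle libraries and at 35.1, 41.5 and 50.1 in the 4-OHT libraries. The groups overlapped, since 4-OHT replicate 3 was above vehicle replicates 2 and 3. The log2 fold change was -0.33 ± 0.234 (SE, adjusted p = 0.271), with a 95% confidence interval of -0.82 to 0.16, so at 34 to 74 reads per library neither a fall nor a small rise could be told from no change. Without 4-OHT replicates 2 and 3 it was -0.57 (adjusted p = 0.188). The interval lay below the point estimate of every marker that rose.

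Other connexins were measured at higher levels. Of 7 tested genes in the connexin list, 3 were higher and 1 was lower, against 22.7% and 21% of all genes tested. The list also holds the junction partner Tjp1. Gjb2, which encodes connexin 26, was lower in every 4-OHT library, at 745, 748 and 729 against 414, 494 and 504, a log2 fold change of -0.66 ± 0.0793 (SE, adjusted p = 1.32e-06). Gja5 (1.18, adjusted p = 0.0393) and Gjb5 (0.72, adjusted p = 0.0269) rose, from low levels and with calls lost in 6 and 5 of the 16 alternatives, and Gjb1, the connexin 32 gene, had a log2 fold change of 0.23 that did not pass (adjusted p = 0.137). The number of higher connexins was 1 with a mean of at least 50 normalized counts, without the filter, without vehicle replicate 2 and without 4-OHT replicates 2 and 3, and the number of lower genes was 2 in 8 alternatives, in which Tjp1 joined Gjb2.

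**Figure D3:**
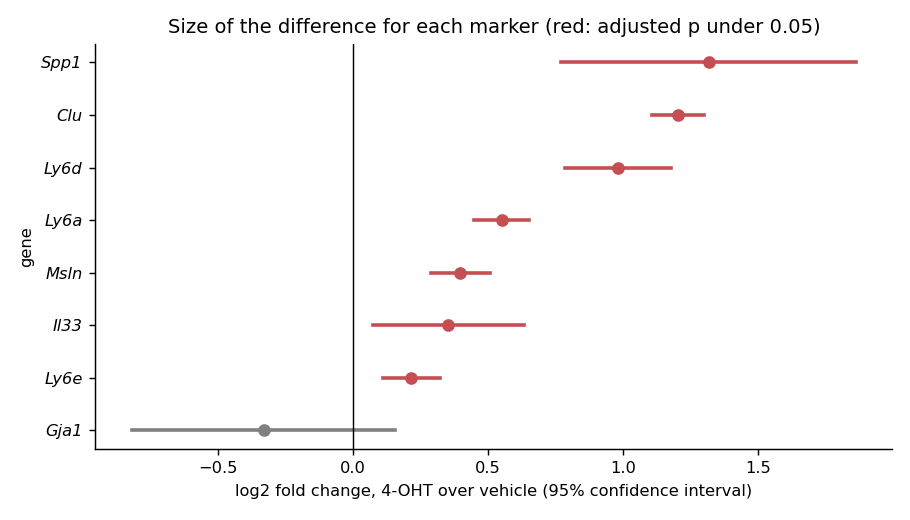
Log2 fold change (4-OHT over vehicle, x axis) of each marker with its 95% confidence interval from the limma fit of 6 libraries, red where the adjusted p was under 0.05. Spp1 (1.32), Clu (1.20) and Ly6d (0.98) have the largest values, and the interval of Gja1 spans 0.

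The sizes of the rises differed among the markers. The interval of Clu (1.11 to 1.30) lay above those of Ly6a (0.45 to 0.65), Msln (0.29 to 0.51) and Ly6e (0.11 to 0.32), while those of Clu, Ly6d (0.78 to 1.18) and Spp1 overlapped. The differences between markers were not tested.

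A further 23 genes known from the fetal or repairing epithelium were listed beside the markers, and 20 were tested. Of these, 16 were higher and 0 were lower in the 4-OHT libraries, against 22.7% and 21% of all genes tested. At an unadjusted p under 0.05, with edgeR and with DESeq2, also 0 were lower. The median log2 fold change was 0.61. The largest rises were those of Basp1 (1.26 ± 0.0768, SE, adjusted p = 1.51e-10), a membrane-associated protein, Sprr1a (1.13 ± 0.124, adjusted p = 4.04e-07), a cornified envelope protein, and the tight junction gene Cldn4 (0.80 ± 0.0621, adjusted p = 4.31e-09). Cldn4 went from 40662, 40729 and 35582 to 61356, 73761 and 68883. The members that did not pass were the EGF receptor ligands Areg (-0.0044, adjusted p = 0.963) and Ereg (-0.0030, adjusted p = 0.974) and the fetal RNA-binding proteins Igf2bp1 (0.28, adjusted p = 0.338) and Igf2bp2 (0.07, adjusted p = 0.296). Areg stood at 4743, 4831 and 4204 in the vehicle libraries and at 4090, 5007 and 4661 in the 4-OHT libraries, which overlap. The fetal regulator Lin28b had at most 5.60 normalized counts in any library and was not tested.

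**Figure D4:**
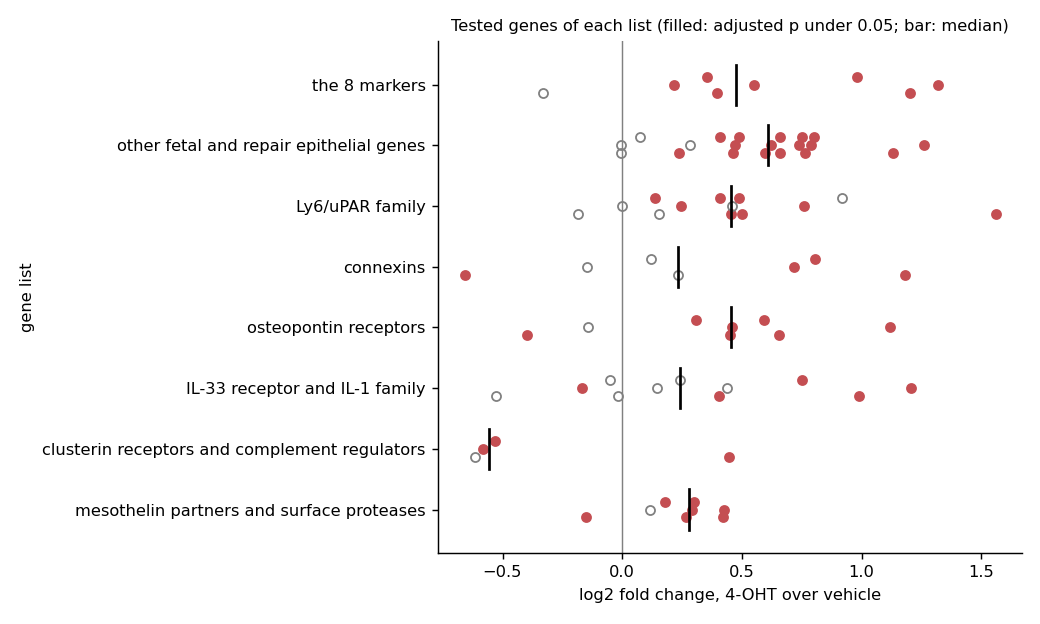
Log2 fold change (x axis) of every tested gene in the 8 markers and in 7 related gene lists (y axis), filled where the adjusted p was under 0.05, with the median of each list as a bar. Of the other fetal and repair genes 16 of 20 are filled and none of these lies below 0, while the connexins range from -0.66 to 1.18.

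For each marker the 2 genes with the most similar profile over the 6 libraries were found by the Euclidean distance between log2 values centred on the vehicle mean. The chosen markers were left out as neighbours, so likeness between markers was not examined. These are descriptions, since the neighbours were taken from all other genes of the 13210 tested. Ly6a was nearest to S100a10 (distance 0.0389), the annexin partner, and Capns1 (0.066), the small calpain subunit. Ly6e was nearest to the G protein subunit Gnai3 (0.0376) and the actin capping gene Capza1 (0.0513), and Ly6d to the phosphatase gene Dusp10 (0.142) and to Tm4sf5 (0.169). Msln was nearest to Ndufa4 (0.0583) and Fkbp9 (0.08). Clu was nearest to the growth factor gene Pdgfb (0.117) and the actin-binding thymosin gene Tmsb4x (0.193). Il33 was nearest to Cish (0.116) and Tsga10 (0.144). The distances were larger for Gja1, to Dach1 (0.255) and Fam151b (0.299), and for Spp1, to Cidea (0.313) and Fam167a (0.399).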

How the data were processed

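Mouse colonic organoid RNA was sequenced in 6 libraries, grouped by the treatment in their labels. The deposited signal was in normalized counts, which the authors made by dividing read counts by a size factor for the library. The submitters' processing notes name STAR, DESeq2 and GRCm39 (mm39). Whole reads could be recovered, since 100% of values in each library gave integers (within 0.1) once divided by the value of 1 read. Of 25067 rows, 1754 were 0 in every library. The paper read for style does not describe this experiment.

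The values were tested with limma-trend (limma 3.58.1, R 4.3.3) on log2(normalized count + 1), without pairing, over the 13210 rows whose mean reached 10. P-values were adjusted by Benjamini-Hochberg over these rows (threshold 0.05). Fold changes on this scale understate those of low genes. The 16 alternatives were other pseudocounts (0.1 and 10), filters (none and 50) and scalings (TMM and quantile), the replicate number as a block, 7 sets of libraries left out, and DESeq2 1.42.0 and edgeR 4.0.16 on the recovered reads. Genes named from each list were the 3 largest rises and falls past the threshold and the receptors or closest relatives the list turns on. Igf2bp1, Igf2bp2, Lin28b, Tjp1 and the cell type markers named were chosen after their values were seen. Lengths and positions are from GENCODE vM21 (GRCm38), and promoters are from RefSeq (GRCm38.p6), where 3 of the markers matched. Protein sequences were not used here. Of the 9 genes chosen, 1 is not reported here, nor are some genes of the lists. Members and lists were chosen with earlier results of these data known.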

Additional observations from a re-analysis of the deposited data

How the results depend on the processing

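Of 126 values of the 8 markers under 16 alternatives, 118 kept their direction and their side of the threshold, 8 were no longer past it and 0 turned direction. Il33 lost its call without the filter on low values (0.35, adjusted p = 0.0503), with DESeq2 (0.37, 0.0551), without 4-OHT replicates 2 and 3 (0.33) and in 4 of the analyses that left out 1 library, which ranged from 0.24 to 0.46. Ly6e lost its call without 4-OHT replicates 2 and 3 (0.12). The count of markers that passed was 5 to 7, and that of all genes was 3848 to 5780. Areg (-0.0702 to 0.0756) and Ereg (-0.049 to 0.048) changed sign when 1 library was left out. The cause was not tested. Of 224 counts of the gene lists, 35 moved by more than 1.5 times.

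No pairing by replicate number was seen. Deviations from the group means correlated at -0.0202 to 0.0303 for libraries with the same number and at -0.0478 to 0.0474 for the others. With 3 libraries per group this cannot exclude a shared animal or culture. With the number as a block, 5637 genes changed in place of 5765, and the same count of 7 markers passed. Spp1 and Gja1 have no value with a mean of at least 50. Depth limits Spp1 and Gja1, at 25 to 75 reads per library.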

Other observations

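The squamous list holds keratins and partners of stratified epithelium. Of 6 tested genes 5 were higher in the 4-OHT libraries and 0 were lower (limma), against 22.7% and 21% of all genes tested. At an unadjusted p under 0.05, with edgeR and with DESeq2, also 0 were lower. Krt5, a basal keratin, stood at 8.40, 8.51 and 6.05 normalized counts in the vehicle libraries and at 61.0, 58.0 and 34.2 in the 4-OHT libraries. Its log2 fold change was 2.56 ± 0.337 (SE, adjusted p = 4.02e-06 with limma). Krt6a, a keratin of wounded skin, stood at 656, 760 and 924 against 1828, 1471 and 1801, a log2 fold change of 1.13 ± 0.0961 (SE, adjusted p = 1.48e-08). Krt15 (0.77), Dsg3 (0.38) and Krt14 (0.17, with overlapping groups) also rose, and Krt13 (0.67, adjusted p = 0.0973) did not pass. Trp63, the defining transcription factor of squamous epithelium, was at 0 in every 4-OHT library and at no more than 1.21 in the vehicle libraries.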
